A study of Homo sapiens with 6 samples.

Results

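Viperin (RSAD2), CMPK2 and SAMHD1 are enzymes that act on the nucleotide pool and are known for restricting viruses. They were taken as the rows of the deposited gene table that carry these symbols, which gave 3 genes of the 57820 listed, with 1 row for each symbol. The 3 were chosen with the difference between STAG2-depleted and control cells already known, so that difference is described here without a test.

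RNA-seq was done in M14 cells, an established human melanoma line, carrying a doxycycline-inducible shRNA against STAG2, a subunit of the cohesin complex. All cells carried the shRNA construct and grew in RPMI with 10% FBS and puromycin at 1 µg/ml. STAG2-KD cells received doxycycline for 5 days before RNA extraction and WT cells received none, with 3 libraries in each condition. Only KD cells received doxycycline, so effects of the drug and of the knockdown cannot be told apart, and the methods name a single shRNA. The study describes its RNA-seq replicates as biologically independent samples, and the labels do not say how they were raised.

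The biochemistry of these enzymes is linked. CMPK2 is a mitochondrial kinase that phosphorylates UMP, CMP and their deoxy forms. Viperin, an iron-sulfur enzyme of the radical S-adenosylmethionine family on the endoplasmic reticulum, converts CTP into the chain terminator ddhCTP. SAMHD1 hydrolyses deoxynucleoside triphosphates into nucleosides and triphosphate, which lowers the supply for reverse transcription, and it is held in check in cycling cells through phosphorylation by CDK2 and CDK1 with cyclin A. RSAD2 and CMPK2 are classical interferon-stimulated genes (ISGs), and SAMHD1 is induced by interferon in some cell types.

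RSAD2 (ENSG00000134321) and CMPK2 (ENSG00000134326) lie side by side on chromosome 2 and point away from each other. On GRCh37, RSAD2 spans 7005688 to 7038370 on the plus strand and CMPK2 spans 6980701 to 7006766 on the minus strand. Their annotated spans overlap by 1079 bases, because some RSAD2 transcripts start inside the annotated span of CMPK2, while the canonical starts are 11.87 kb apart. SAMHD1 (ENSG00000101347) is on chromosome 20, minus strand, and covers 35518632 to 35580296. The canonical transcripts have 6 exons for RSAD2, 5 for CMPK2 and 16 for SAMHD1.

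The promoter windows are shown because an upstream start of RSAD2 lies in the start region of CMPK2, while the canonical RSAD2 start lies outside it. RefSeq windows of 250 bases before to 50 bases after each annotated start were taken from a GRCh38.p14 table, and each of the 6 windows of the 3 genes matched 1 place on GRCh37. Capitals mark matches to the core of the interferon-stimulated response element (ISRE core, GAAA repeated after any 2 bases), to TATAAA and to GAAANGAAA, each searched on both strands. The last of these was added after the sequences had been seen.
RSAD2, canonical start, chr2:7017658-7017957, plus strand: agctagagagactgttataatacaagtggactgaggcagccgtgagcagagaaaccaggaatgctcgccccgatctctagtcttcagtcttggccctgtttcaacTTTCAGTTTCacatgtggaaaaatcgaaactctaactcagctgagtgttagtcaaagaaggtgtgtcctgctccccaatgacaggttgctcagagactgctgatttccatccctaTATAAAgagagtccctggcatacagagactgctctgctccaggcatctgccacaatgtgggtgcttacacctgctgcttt
RSAD2, upstream start, chr2:7005766-7006065, plus strand: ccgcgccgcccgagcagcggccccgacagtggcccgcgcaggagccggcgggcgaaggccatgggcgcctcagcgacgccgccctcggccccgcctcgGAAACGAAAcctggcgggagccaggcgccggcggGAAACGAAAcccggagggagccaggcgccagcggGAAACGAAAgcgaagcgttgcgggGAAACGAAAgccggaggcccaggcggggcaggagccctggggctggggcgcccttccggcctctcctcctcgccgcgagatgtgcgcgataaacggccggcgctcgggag
CMPK2, canonical start, chr2:7005989-7006288, minus strand: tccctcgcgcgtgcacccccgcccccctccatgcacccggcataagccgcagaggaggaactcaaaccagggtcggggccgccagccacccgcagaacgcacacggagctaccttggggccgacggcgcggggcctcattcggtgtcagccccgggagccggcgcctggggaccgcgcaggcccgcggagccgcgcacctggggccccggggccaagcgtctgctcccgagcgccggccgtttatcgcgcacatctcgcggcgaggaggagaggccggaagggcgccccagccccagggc
SAMHD1, canonical start, chr20:35580062-35580361, minus strand: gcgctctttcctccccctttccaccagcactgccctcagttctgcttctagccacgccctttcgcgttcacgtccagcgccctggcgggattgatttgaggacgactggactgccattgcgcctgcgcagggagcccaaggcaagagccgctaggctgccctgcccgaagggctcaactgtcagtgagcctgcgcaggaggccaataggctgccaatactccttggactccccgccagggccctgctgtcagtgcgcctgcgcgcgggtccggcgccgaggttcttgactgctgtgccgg

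The canonical RSAD2 window held 1 ISRE core on the minus strand, at −145 to −136 from the start, and 1 TATAAA at −30 to −25. Of all 35116 windows of this length in the RefSeq table, 3.57% held an ISRE core and 11.5% a TATAAA. The upstream RSAD2 window held GAAACGAAA 4 times on the plus strand, where 3.12% of all windows held any GAAANGAAA. A CMPK2 window around a start at 7005950 covers 2 of these 4 sites, read from the other strand. The canonical CMPK2 window, the window of its most upstream start and the SAMHD1 window held none of the 3 strings. Another planned string, the GAS core TTCNNNGAA, had no match in any window of the 3 genes, where 7.66% of all windows held it. A match describes letters in these windows and is not evidence of binding, and a gene-level count does not say which RSAD2 start was used.

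The libraries held from 24895998 to 35181733 expected counts, the estimates by which RSEM divides reads between genes. Levels are given as CPM, counts scaled to library size with TMM factors, and means are given ± SD over the 3 libraries of a condition. Adjusted p-values are from the quasi-likelihood test of edgeR, corrected by the Benjamini-Hochberg method across the tested genes. On the CPM scale a floor of 3 counts lay between 0.0870 and 0.112 CPM. This floor covers counting error only. STAG2 was at 66.5, 34.8 and 28.8 CPM in WT replicates 1 to 3 and at 15.96, 7.31 and 6.70 CPM in KD replicates 1 to 3, a log2 fold change of −2.12 (standard error 0.43). Mitochondrial transcripts took 5.08% of counts in WT replicate 1 and from 2.12% to 2.95% in the other libraries. WT replicate 1 also had the fewest expected counts (24895998) but the most genes above 0, at 20646, beside 16028 to 17995 in the other libraries. The 10 melanocyte markers were all detected, with a summed level from 1938 to 6474 CPM in WT and from 1272 to 2680 CPM in KD, and 1 of them (S100B) fell in the edgeR test across all genes, a call lost without KD replicate 2 (edgeR adjusted p = 0.0555) or KD replicate 3 (0.0865). With a block for the replicate number in that test, 7 of them fell and 1 rose, beside 4.42% lower and 5.1% higher over all tested genes. PMEL, among the 7, was far higher in replicate 1, at 3370, 662 and 684 CPM in WT and 1254, 358 and 364 CPM in KD. Its log2 fold change was −1.25 with all libraries and −0.049 without WT replicate 1, both with no block. Of 7 markers of blood, epithelial and endothelial cells in the table, CD3E was at 0 in every library and PTPRC at 0 in all but WT replicate 3, and their sum was from 3.20 to 5.63 CPM in WT and from 4.26 to 9.15 CPM in KD. The part of these shifts in the results below was not tested. In bulk RNA, fewer expressing cells and less RNA per cell cannot be told apart.

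RSAD2 was close to silent in WT cells. It had 1, 1 and 0 counts in WT replicates 1 to 3, all under the floor, and 40.3, 21.2 and 47.6 CPM in KD replicates 1 to 3. Its KD mean was 36.4 ± 13.6 CPM, at least 354-fold higher than the mean WT floor of 0.103 CPM. KD replicate 2 was the lowest of the KD libraries, and it still had 628 counts. This gene therefore went from below detection to a level clearly counted in each KD library.

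CMPK2 was also very low in WT, but it was detected in each WT library. It had 24, 23 and 28 counts in WT, or 0.894, 0.667 and 1.02 CPM. In KD it had 87.3, 74.7 and 138.3 CPM. The means were 0.860 ± 0.179 CPM for WT, against 100.1 ± 33.6 for KD, a 116-fold ratio. The log2 fold change fitted by edgeR was 6.87 (standard error 0.35). The lowest KD library lay far above the highest WT library.

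SAMHD1 differed from RSAD2 and CMPK2 in that it was readily measured in WT cells. It was at 11.1, 22.2 and 13.0 CPM in WT and at 105, 101.7 and 160.1 CPM in KD. The means were 15.4 ± 5.92 CPM for WT, against 122 ± 32.8 for KD, a 7.93-fold ratio, with a log2 fold change of 2.99 (standard error 0.32). WT replicate 2 stood above the other WT libraries, and without it the log2 fold change was 3.34. The WT and KD libraries did not overlap.

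**Figure D1:**
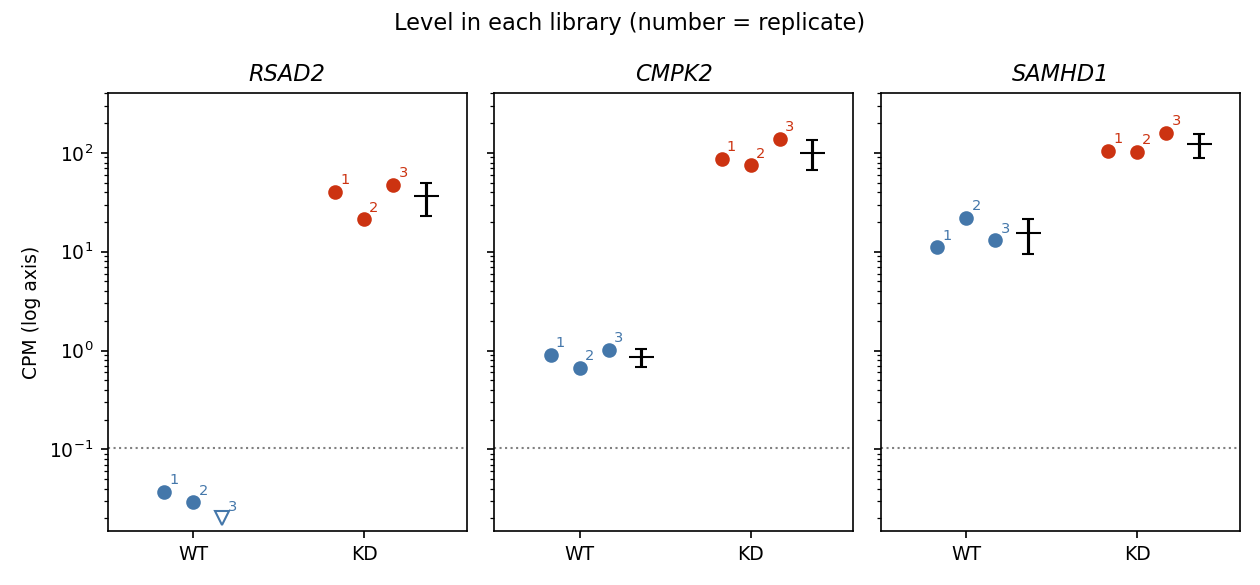
Level of RSAD2, CMPK2 and SAMHD1 in each WT (blue) and KD (red) library, in CPM on a log axis, with the replicate number beside each point. Black bars are the mean and SD of 3 libraries, the dotted line is the mean WT floor of 3 counts (0.103 CPM), and the open triangle at the bottom stands for 0 counts. RSAD2 lies under the floor in WT, CMPK2 near 1 CPM and SAMHD1 above 11 CPM, while the KD libraries range from 21.2 CPM for RSAD2 to 160.1 CPM for SAMHD1.

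In the test across 15605 genes (edgeR quasi-likelihood, adjusted p under 0.05), 1.75% of genes were higher in KD and 0.839% lower, and 11.8% had each KD library above each WT library. The 3 members were tested, were among the genes called higher and had no overlap between conditions. Nothing is read from this, since they were chosen on the same contrast. Without each library in turn, the log2 fold change was from 6.54 to 7.03 for CMPK2 and from 2.73 to 3.34 for SAMHD1, and the log2 of the lower bound for RSAD2 was from 8.20 to 8.74.

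Levels between genes were compared per kilobase of the canonical transcript, which is 3407 bases for RSAD2, 3095 for CMPK2 and 4649 for SAMHD1. In KD, CMPK2 was at 32.3 ± 10.9, SAMHD1 at 26.3 ± 7.06 and RSAD2 at 10.7 ± 3.99 CPM per kilobase. CMPK2 exceeded RSAD2 in each KD library, by 2.39-, 3.87- and 3.20-fold per length in replicates 1 to 3. CMPK2 and SAMHD1 overlapped in their ranges, although the ratio of SAMHD1 to CMPK2 within a library varied little, at 0.800, 0.906 and 0.771. In WT the same ratio was 8.24, 22.1 and 8.51, so the order of these 2 genes was the reverse in WT, with only 23 to 28 counts behind each WT value of CMPK2. Per length, the KD mean of CMPK2 was above that of 83.4% of 14940 tested genes with a known length, SAMHD1 above 80.4% and RSAD2 above 65.7%. In WT these shares were 8.9%, 43.8% and 0.2%. RSAD2 passed the filter on low counts only through its KD libraries, and genes low in all libraries were left out. Of the 57820 genes listed, 33470 were at 0 in every library, so the WT share of RSAD2 is not its place among all genes.

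The 3 enzymes were placed beside 26 other antiviral ISGs, a list written from general knowledge that covers the IFIT, OAS, MX, IFI and other families. Of these, 25 could be tested and all 25 were higher in KD with no overlap, with log2 fold changes from 1.15 for MX2 to 9.19 for IFI27 and a median of 4.09, where the median of all tested genes was −0.026. Since these genes were known to rise in earlier results of the same libraries, this count is a description. EPSTI1 was the exception that was not tested, being at 0 in WT and at most 0.245 CPM in KD. The lower bound of RSAD2 on the log2 scale, 8.47, lay above the fitted change of IFI44L, 7.38, and the change of CMPK2 lay above that of ISG15, 5.71. SAMHD1 (2.99) was 24th of 28 by fitted log2 fold change. By level per length in KD, CMPK2 was 13th, SAMHD1 14th and RSAD2 24th of 28 genes, so the large ratio of RSAD2 went with a KD level under that of most ISGs listed. IFI6, a mitochondrial and endoplasmic reticulum protein, led this order with 5568 CPM per kilobase.

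**Figure D2:**
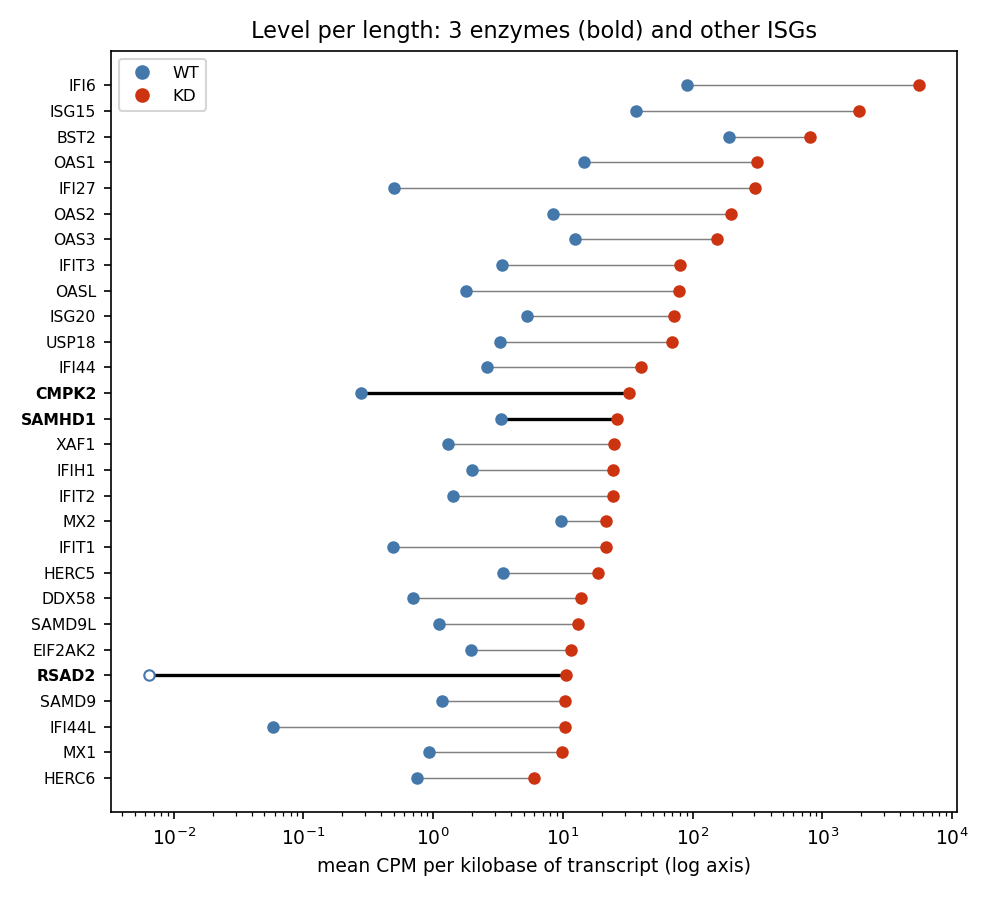
Mean level per kilobase of canonical transcript (log axis) of the 3 enzymes (bold names, black lines) and 25 other ISGs in WT (blue) and KD (red), ordered by the KD level. The open symbol marks RSAD2 in WT, which had at most 1 count in a library. RSAD2 is the lowest of the 28 genes in WT and reaches 10.7 in KD, below CMPK2 (32.3) and SAMHD1 (26.3). It passed the filter on low counts only through its KD libraries, and EPSTI1, at 0 CPM in WT, did not pass and is not drawn. The WT place of RSAD2 therefore holds only within the genes shown.

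Each of the 3 enzymes was lowest in KD replicate 2 and highest in KD replicate 3, but KD replicate 1 differed between them. As log2(CPM + 0.5) minus the mean of the KD libraries, it was at 0.22 for RSAD2, −0.15 for CMPK2 and −0.19 for SAMHD1. For SAMHD1 this was close to KD replicate 2, at −0.23. The highest KD library was 2.21 times the lowest for RSAD2, 1.85 times for CMPK2 and 1.57 times for SAMHD1, on the scale of CPM + 0.5. Among the 25 other ISGs this ratio ran from 1.22 for MX1 to 3.33 for IFI27, with a median of 1.73. KD replicate 2 was the lowest in 19 of the 25 (76.0%) and in 31.9% of the 13427 tested genes with at least 1 CPM in KD. The full order of the enzymes, replicate 2 lowest and replicate 3 highest, was met by 6 of the 25 ISGs and by 10.6% of the 13427 genes. IFIT1, IFIT2 and IFIT3, which bind viral RNA or act with partners that do, were instead highest in KD replicate 1. STAG2 itself was lowest in KD replicate 3, at 6.70 CPM, beside 7.31 CPM in KD replicate 2.

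**Figure D3:**
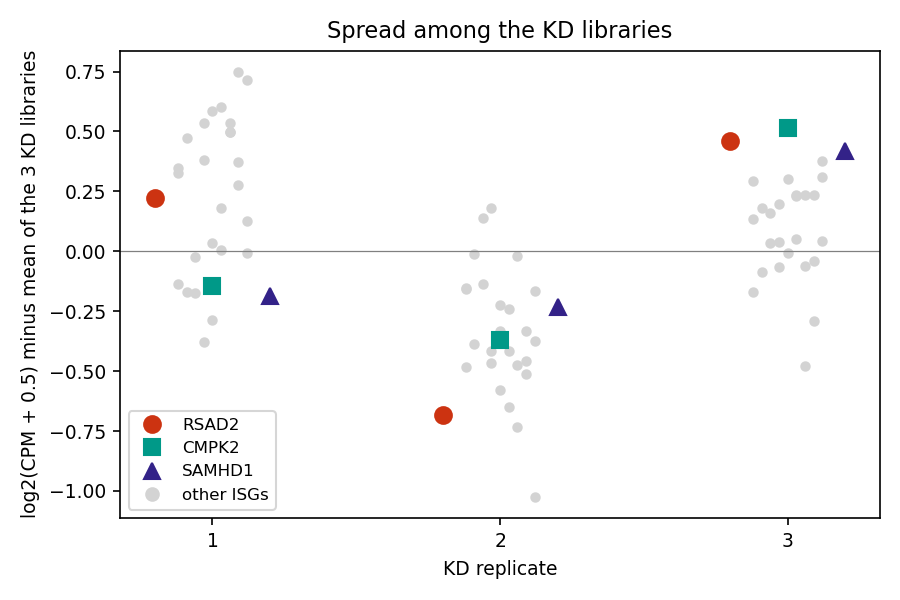
Level of each gene in each KD library as log2(CPM + 0.5) minus its mean over the 3 KD libraries, for RSAD2, CMPK2 and SAMHD1 (coloured symbols) and 25 other ISGs (grey points). The 3 enzymes share KD replicate 2 as the lowest and KD replicate 3 as the highest library. RSAD2 has the widest spread of the 3, with a ratio of 2.21.

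Over the 6 libraries, the genes most like each enzyme were found by Pearson r of log2(CPM + 0.5) among 13535 tested genes with a mean of at least 1 CPM. RSAD2 was most like IFI6 (r = 0.999), HSH2D (0.999) and RTP4 (0.998). CMPK2 was most like HSH2D (0.999), ISCU (0.998) and SAMD9L (0.998). SAMHD1 was most like UBE2L6, the E2 enzyme of ISG15 conjugation (r = 0.996), CACNA1I (0.995) and RNF122 (0.994). Without the replicate block, ISCU, CACNA1I and RNF122 did not pass the test (edgeR adjusted p = 0.246, 0.165 and 0.118). CACNA1I was low, with means of 0.242 CPM in WT and 3.27 CPM in KD. Among the enzymes themselves, r was 0.997 between RSAD2 and CMPK2, 0.977 between RSAD2 and SAMHD1 and 0.973 between CMPK2 and SAMHD1. The points fall into the 2 conditions and share their libraries, and between 250 and 266 other genes had an r over 0.95 with each enzyme, so the order among them is a description. ISCU, the scaffold of mitochondrial iron-sulfur cluster assembly, had means of 43.8 CPM in WT and 60.4 CPM in KD, which shows that a high r can go with a small change.

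Apart from the enzymes themselves, none of the tested genes around them was called higher, beside 1.75% of all tested genes. With that share and so few neighbours, nothing is read from this. Within 200 kb of the RSAD2 and CMPK2 starts, RNF144A, a ubiquitin ligase, had a log2 fold change of −0.42 (standard error 0.25, edgeR adjusted p = 0.51). Its antisense gene RNF144A-AS1 had −0.51 (edgeR adjusted p = 0.648), and RP11-439M11.1, with at most 17 counts, had −1.75 (edgeR adjusted p = 0.753). These start between 40.7 and 53.2 kb from the outermost annotated start of RSAD2, which lies upstream of its canonical start. On the CMPK2 side, NRIR, a long non-coding RNA known as a negative regulator of the interferon response and listed in the table as AC017076.5, was at 0 counts in all 6 libraries, as was LINC00487. A count of 0 allows up to 0.112 CPM in the shallowest library by this measure.

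Around SAMHD1, 3 neighbours were tested and all had lower mean values in KD. SOGA1 had 103.7, 216.7 and 128.5 CPM in WT and 48.0, 84.1 and 66.7 CPM in KD, with a fitted log2 difference of −1.18 (edgeR adjusted p = 0.0916). With the replicate block SOGA1 fell, with an adjusted p of 0.0014. Like SAMHD1, SOGA1 was highest in WT replicate 2 among the WT libraries. RBL1, which encodes the retinoblastoma-like protein p107, had a log2 fold change of −0.84 (edgeR adjusted p = 0.158), and DSN1, a kinetochore subunit, −0.081 (edgeR adjusted p = 0.947). TLDC2 lies on the opposite strand and its end overlaps that of SAMHD1. It was at 0 counts in the WT libraries and at 60.5, 4.06 and 31.4 counts in KD replicates 1 to 3, too few for the test. The library kit was directional, but the strand setting of the counting is not given in the sources used here, so reads of TLDC2 and SAMHD1 in the overlap, and of RSAD2 and CMPK2 in theirs, may not be told apart. SAMHD1 had 3374, 3006 and 5232 counts in KD replicates 1 to 3, and how many of them came from TLDC2 was not tested.

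**Figure D4:**
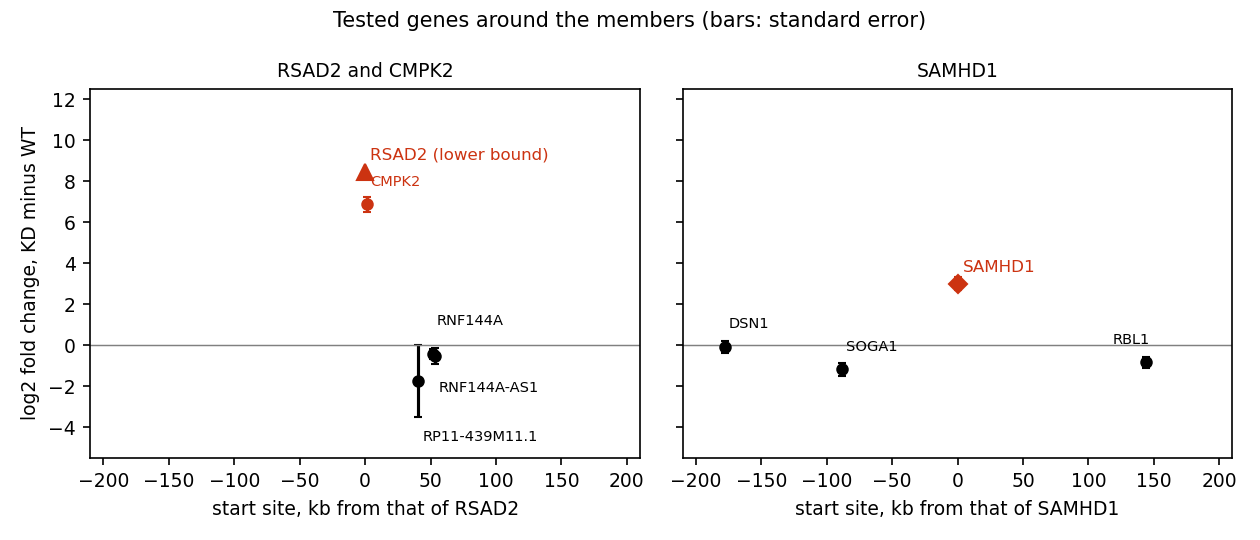
Log2 fold change, KD minus WT, of tested genes against the distance of their start site from that of RSAD2 (left) or SAMHD1 (right), in kb within 200 kb. Start sites here are the outermost annotated ones, not the canonical ones. Bars are standard errors, and the triangle is the lower bound of RSAD2 against the floor (8.47). Neighbours lie between −1.75 and −0.081, below CMPK2 at 6.87 and SAMHD1 at 2.99.

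The genes that supply, use or regulate these enzymes were read from 12 lists with 95 symbols in all, of which 94 were in the table and were tested. Of these 94 genes, 4 were higher in KD and 0 lower (edgeR, adjusted p under 0.05), against 1.75% higher and 0.839% lower among all tested genes. At an unadjusted p under 0.05, 16 were lower and 8 higher, beside 6.98% and 7.77% of all tested genes. With the replicate block, 6 were higher and 12 lower, beside 5.1% higher and 4.42% lower over all tested genes. The median change of the 94 was −0.058 on the log2 scale, beside −0.026 over all tested genes. By other tools, DESeq2 called 5 higher and 6 lower, and limma-voom 4 higher and 2 lower. Leaving out WT replicate 2 or KD replicate 3 left 0 genes called higher, and leaving out KD replicate 2 left 1.

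Of the 4 that rose, 3 remove phosphate from nucleotides or the base from nucleosides. NT5C3A, a cytosolic nucleotidase that hydrolyses CMP and UMP and is itself inducible by interferon, was at 13.5, 10.4 and 6.37 CPM in WT and 48.0, 31.7 and 39.6 CPM in KD. The fitted log2 difference was 1.98 ± 0.32 (standard error), with an edgeR adjusted p of 0.0117. PNP, the purine nucleoside phosphorylase, averaged 45.3 ± 6.64 CPM in WT, against 96.4 ± 4.41 in KD, with a log2 fold change of 1.09 (edgeR adjusted p = 0.017). NT5E, the cell surface nucleotidase CD73 that makes adenosine from AMP, averaged 37.1 ± 10.2 CPM in WT, against 80.1 ± 7.39 in KD, with a log2 fold change of 1.11 (edgeR adjusted p = 0.046). These 3 belong to the list of 10 genes for nucleotidases and nucleoside breakdown, of which 7 did not pass, among them UPP1 (−0.30) and ADA (0.16). TYMP, the thymidine phosphorylase, averaged 6.17 ± 1.93 CPM in WT, against 15.8 ± 6.99 in KD, and passed with the replicate block (edgeR adjusted p = 0.014) but not without it (0.13 from edgeR). DESeq2 (adjusted p = 0.0381) and edgeR with no filter on low counts (0.0265) also called it. The calls for NT5C3A and PNP were lost without WT replicate 2 (adjusted p = 0.0588 and 0.0871 from edgeR) or KD replicate 3 (0.069 and 0.107 from edgeR), and that for PNP also without KD replicate 2 (0.1 from edgeR). NT5E lost its call without any one library other than WT replicate 1, with adjusted p from edgeR up to 0.197.

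The fourth was CDKN1A, the p21 inhibitor of the cyclin-dependent kinases that phosphorylate SAMHD1. It was at 24.3, 62.8 and 77.9 CPM in WT and at 241, 273 and 269 CPM in KD, with no overlap, and the fitted log2 difference was 2.25 ± 0.37 (standard error), with an edgeR adjusted p of 0.0139. The call was lost without WT replicate 2, KD replicate 2 or KD replicate 3, with an adjusted p from edgeR of 0.0522, 0.0622 and 0.0669. The kinases and cyclins of the same list did not pass. CDK2 averaged 93.5 ± 21.9 CPM in WT, against 79.1 ± 14.02 in KD, and CDK1 averaged 25.6 ± 7.18 against 13.98 ± 4.77 CPM. CCNA2, the cyclin A2 gene, averaged 29.1 ± 5.25 CPM in WT, against 14.03 ± 6.37 in KD, with an adjusted p of 0.199 from edgeR and 0.041 with the replicate block. PPP2R2A, the regulatory subunit that directs phosphatase PP2A to SAMHD1, was at 32.6 ± 5.66 and 50.04 ± 7.40 CPM, with an adjusted p of 0.215 from edgeR and 0.0447 with the block. MRE11A and RBBP8, which work with SAMHD1 in the resection of DNA ends, had log2 fold changes of −0.87 and −0.056 and did not pass.

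The calls for genes that make deoxynucleotides, the substrates of SAMHD1, differed between fits. In the list of ribonucleotide reductase and thymidylate synthesis, 0 of 12 genes passed in edgeR without the replicate block and 5 fell with it, beside 4.42% of all tested genes. The median of the 12 was −0.57 on the log2 scale. TYMS, the thymidylate synthase, was at 252, 394 and 463 CPM in WT and 117, 177 and 198 CPM in KD, with no overlap and a fitted log2 difference of −1.17 (edgeR adjusted p = 0.0658, 0.000577 with the block). Without WT replicate 1, and with no block, TYMS and DTYMK passed (edgeR adjusted p = 0.0176 and 0.0273). With all libraries and no filter on low counts, TYMS, DTYMK and RRM1 passed, with edgeR adjusted p up to 0.0442. DTYMK, RRM1 and SHMT1 were among the other 4 that fell with the block, named after their values were seen, with log2 fold changes of −0.99, −0.75 and −0.59. RRM2, the small subunit of the reductase, had −0.55 (edgeR adjusted p = 0.436, 0.084 with the block), and SHMT2 had 0.22. In both conditions TYMS was lowest in replicate 1 and highest in replicate 3, which is the kind of shared difference that the block removes. TK1, the cytosolic thymidine kinase, averaged 356 ± 139 CPM in WT, against 199 ± 71.6 in KD, and fell with the block (edgeR adjusted p = 0.00416) but not without it (0.306 from edgeR), except where no filter on low counts was applied (0.0158 from edgeR).

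CMPK2 has a cytosolic counterpart, which did not pass the test. CMPK1 was at 86.5, 65.2 and 57.4 CPM in WT and 62.0, 60.0 and 53.9 CPM in KD (a log2 difference of −0.25, edgeR adjusted p = 0.682). None of the 10 UMP, CMP, AMP and GMP kinases measured, CMPK1 included, passed (edgeR, with or without the block), with log2 fold changes from −0.51 to 0.25. The 5 genes of pyrimidine and CTP synthesis, which make the substrate of viperin, lay between −0.36 for CAD and 0.23, and CTPS1, the main CTP synthase, averaged 118 ± 22.4 CPM in WT, against 128 ± 14.3 in KD. Of 6 nucleoside diphosphate kinases, 0 passed and 2 fell with the block, NME4 (−0.54) and NME3 (−1.04), beside the 4.42% of all tested genes that fell with it. NME1 had −0.53 (edgeR adjusted p = 0.281). None of the 9 genes of mitochondrial DNA synthesis and nucleotide carriers passed with or without the block, with POLG at 0.23 and SSBP1 at 0.14 on the log2 scale. The other pool hydrolases beside SAMHD1 numbered 7, with a median log2 fold change of −0.26, and none passed.

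In the 3 lists around viperin, no gene passed in edgeR without the block and 1 in each fell with it. The cytosolic iron-sulfur assembly machinery, which loads the cluster that viperin needs, had 9 tested genes, of which 0 passed and 1, NUBP2 (−0.59), fell with the block. CIAO1, which binds viperin in that machinery, averaged 169 ± 21.6 CPM in WT, against 172 ± 11.6 in KD. Among 5 genes of S-adenosylmethionine supply, 0 passed and AHCY, which clears the product of methylation reactions, fell with the block (−0.70, edgeR adjusted p = 0.0125, 0.137 without it). MAT2A, which makes S-adenosylmethionine, had −0.39 (edgeR adjusted p = 0.485). Of 7 described interaction partners, 0 passed and FDPS, the farnesyl diphosphate synthase of the cholesterol pathway, fell with the block (−0.69). IRAK1 averaged 639 ± 272 CPM in WT, against 500 ± 36.7 in KD, and HADHA had a log2 fold change of 0.15. A p that misses the threshold does not show that these levels were equal.

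**Figure D5:**
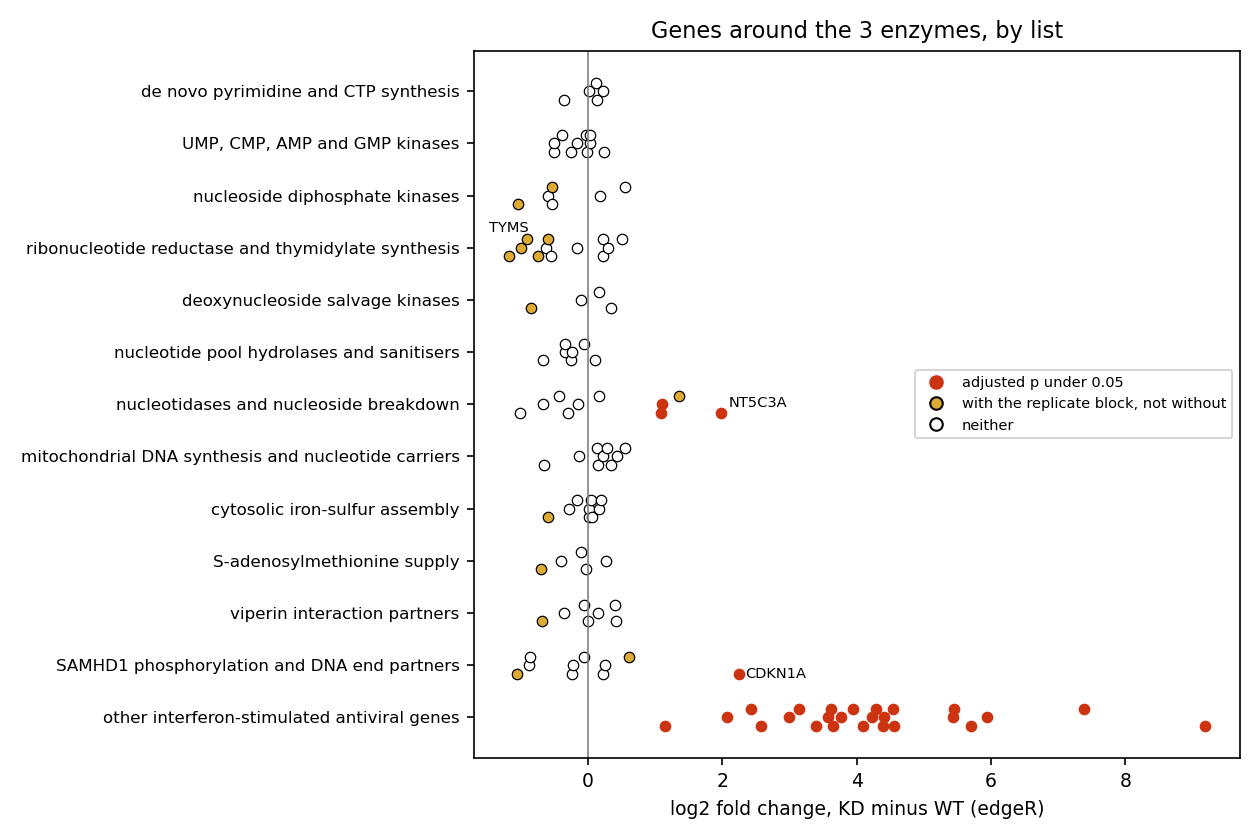
Log2 fold change, KD minus WT, of each tested gene in the 12 lists around the 3 enzymes and in the list of other ISGs. Red points have an edgeR adjusted p under 0.05, yellow points pass with the replicate block but not without it, and open points pass in neither fit, with points offset vertically for legibility. The 4 red points outside the ISGs are NT5C3A, PNP, NT5E and CDKN1A, and 12 of the yellow points lie below 0.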

How the data were processed

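M14 cells with (KD) and without (WT) doxycycline were profiled by poly(A) RNA-seq, with 3 libraries per condition. The authors mapped reads to hg19 with STAR and deposited RSEM expected counts per gene, neither scaled nor filtered. RSEM divides reads shared between genes, and the annotation version and strand setting are not given in the sources used here. Gene positions are from GENCODE v44 lifted to GRCh37, matched by gene ID.

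Expected counts were rounded and tested in R 4.3.3 with edgeR 4.0.16 (filterByExpr, 15605 genes, TMM, quasi-likelihood test, Benjamini-Hochberg adjustment over all tested genes, threshold 0.05). The procedure was also run on simulated counts with the same dispersion for every gene and no effect of the replicate number. That run therefore does not cover shared differences between same-numbered libraries. DESeq2 1.42.0, limma 3.58.1 (voom), upper-quartile scaling, no filter, a replicate block and leaving out each library were the alternatives. Replicate numbers are shared between conditions, and deviations from the condition mean correlated by 0.508, 0.33 and 0.283 (across 12722 genes) in same-numbered pairs. WT replicate 2 with KD replicate 3 had 0.198, and WT replicate 3 with KD replicate 2 had 0.157. Unlike pairs with a replicate 1 had from −0.394 to −0.322, so replicates 2 and 3 were less clearly told apart. The study names no pairing for its RNA-seq libraries, so the test without the block was kept as the main one. Blocked values are given where they change a call.

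The members, lists and motifs were chosen with earlier results of these data known. The genes named are the 3 members, STAG2, up to 4 called genes per list by size of change with a mean of at least 1 CPM and up to 2 uncalled genes by level, neighbours within 200 kb and the 3 genes most like each member. Other genes were named after their values were seen, and a few items are not reported here.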

Additional observations from a re-analysis of the deposited data

How the results depend on the processing

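The log2 fold changes of CMPK2 and SAMHD1 moved by less than the spread between libraries under DESeq2, upper-quartile scaling, limma-voom, no filter, the replicate block and the removal of each library, as did the lower bound for RSAD2, which limma-voom and the block do not alter. The number of genes called was 404 without the replicate block, 1486 with it, 979 with DESeq2, 1103 without a filter, and from 121 to 531 with a library left out. The pathway genes called lower, 0 in the test as reported, were 6 with DESeq2, 1 with upper-quartile scaling, 2 with limma-voom, 7 without a filter, 12 with the replicate block and from 0 to 2 with a library left out. Those called higher ran from 0 to 4 with a library left out. The cause of these differences was not tested, except that a left-out library leaves fewer samples. Genes near 0 change turned sign: CIAO1 to −0.0056 with upper-quartile scaling and, with a library left out, CIAO1 (−0.079 to 0.093), ADA (−0.0326 to 0.331), DGUOK (−0.0082 to 0.354) and DSN1 (−0.164 to 0.0059). For the named genes, the replicate block left 42 calls as they were and added 17, all given with the results except RNF122 (1.05, edgeR adjusted p = 0.0373), SOX10 and PMEL. IFI44L lost its call with limma-voom (7.91, adjusted p = 0.0597). Depth limits RSAD2 in WT, where at most 1 count was seen.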
